A study of Mus musculus with 10 samples.

Results

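The study sequenced whole-liver RNA of mice in 5 libraries with the label Alk1-HEC-KO and in 5 controls, and 7 genes that were higher in every labelled knockout library than in every control library are described here: Rflnb, Trp53i11, Ptp4a3, Ltc4s, Gprc5b, Fam198b and Nxpe4. They were chosen from 55385 gene IDs in the tables because they belong to no marker family and because their groups did not overlap, so their difference between the groups is a description and carries no test. All 7 were among the 12872 genes with enough counts to be tested. ALK1, encoded by Acvrl1, is a receptor of endothelial cells for BMP ligands. The labels give the genotype Alk1-HEC-KO or Ctrl and frozen whole liver tissue as the source of all 10 libraries. The sources used here do not give the Cre driver, the alleles, the strain, the age or the sex of the animals, nor whether each library is 1 animal, so the spread between libraries may be partly technical.

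Library totals ranged from 20907368 to 21556461 estimated counts. Acvrl1 was at 1.15, 1.39, 1.22, 1.92 and 1.12 TPM (transcript abundance per length, scaled to the same total in each library) in labelled knockout libraries 1 to 5, against 1.05, 0.296, 0.391, 0.661 and 0.951 TPM in control libraries 1 to 5. The targeted gene was therefore higher on average where the label says knockout (1.36 ± 0.331 against 0.669 ± 0.331 TPM, SD, n = 5 each). The difference did not pass (edgeR quasi-likelihood test, adjusted p = 0.336). A lower level under the knockout label was not seen, and the reason was not tested. Every direction below refers to the libraries as labelled. A gene-level sum over all transcripts does not show which exons were deleted.

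Several of the 7 genes act at membranes or on the cytoskeleton. Rflnb encodes refilin B, which binds filamins and organises actin into bundles. Trp53i11 was named as a p53-inducible gene and encodes a membrane protein. Ptp4a3 encodes PRL-3, a prenylated phosphatase that binds the CNNM magnesium transporters. Ltc4s encodes leukotriene C4 synthase, which joins leukotriene A4 to glutathione and is known from mast cells, eosinophils and macrophages. Gprc5b encodes an orphan receptor of the retinoic acid-inducible GPRC5 family. Fam198b, also called Gask1b, encodes a Golgi-associated protein related to the FAM20 kinases, and Nxpe4 belongs to the neurexophilin and PC-esterase domain family.

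The promoters of the 7 genes had no common type. RefSeq sequences of the GRCm38.p6 build, from 250 bases before to 50 bases after the start, matched 6 of the 7 genes, Fam198b under its symbol Gask1b. Rflnb (77.0% G and C), Trp53i11 (70.3%) and Gprc5b (66.3%) have CpG-rich promoters, with observed over expected CpG ratios of 1.04, 0.70 and 0.74. Ltc4s (58.7% G and C), Nxpe4 (42.3%) and Fam198b (39.7%) have ratios of 0.23, 0.08 and 0.25. Among 32851 promoters of the same length the median was 52.7% G and C, and 35.8% had a ratio over 0.6. The 4 promoters printed show both types and the motifs named after them, 5′ to 3′ on the strand of the gene, with the motif letters in capitals: Trp53i11 at chr2:93187298-93187597 (plus strand), Ltc4s at chr11:50238483-50238782 (minus strand), Gprc5b at chr7:118995162-118995461 (minus strand) and Nxpe4 at chr9:48361791-48362090 (plus strand).
Trp53i11: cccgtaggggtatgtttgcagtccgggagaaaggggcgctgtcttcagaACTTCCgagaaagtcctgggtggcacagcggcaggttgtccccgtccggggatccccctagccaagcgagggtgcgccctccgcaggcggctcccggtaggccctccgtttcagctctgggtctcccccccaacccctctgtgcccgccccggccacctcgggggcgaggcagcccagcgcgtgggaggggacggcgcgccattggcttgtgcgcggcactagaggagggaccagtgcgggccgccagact
Ltc4s: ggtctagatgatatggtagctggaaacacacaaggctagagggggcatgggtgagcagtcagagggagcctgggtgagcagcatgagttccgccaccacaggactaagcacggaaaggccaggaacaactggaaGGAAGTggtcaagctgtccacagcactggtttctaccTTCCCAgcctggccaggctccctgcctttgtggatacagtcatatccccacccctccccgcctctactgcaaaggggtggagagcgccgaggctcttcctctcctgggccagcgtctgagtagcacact
Gprc5b: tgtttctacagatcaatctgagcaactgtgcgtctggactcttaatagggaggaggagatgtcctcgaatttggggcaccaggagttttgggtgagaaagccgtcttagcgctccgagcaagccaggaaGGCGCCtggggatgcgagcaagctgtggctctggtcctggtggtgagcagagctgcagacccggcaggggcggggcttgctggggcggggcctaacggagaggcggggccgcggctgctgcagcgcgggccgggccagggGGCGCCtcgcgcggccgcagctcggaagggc
Nxpe4: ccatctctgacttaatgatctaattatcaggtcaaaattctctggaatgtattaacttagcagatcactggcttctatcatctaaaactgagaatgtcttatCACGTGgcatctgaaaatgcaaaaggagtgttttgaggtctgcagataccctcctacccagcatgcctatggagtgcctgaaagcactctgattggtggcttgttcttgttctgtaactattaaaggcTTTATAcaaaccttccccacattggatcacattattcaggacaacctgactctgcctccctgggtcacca
The motif GGAAGT, the core of sites for ETS factors, which include endothelial regulators, was searched on both strands and stands once each in the promoters of Trp53i11 (as its reverse complement) and Ltc4s, 2 of 6, against 23.8% of all promoters. The motif GGCGCC, found in BMP-responsive elements, stands 2 times in that of Gprc5b, 1 of 6, against 11.9% of all. TGGGAA, a core of RBPJ sites in Notch signalling, is in Ltc4s as its reverse complement (25.6% of all promoters). An E-box, CACGTG, stands in Nxpe4 (7.15% of all), as does a TATA box, searched as TATAAA and found as its reverse complement (13.6% of all). TGANTCA, a loose form of the AP-1 site with any base as N, is in Fam198b 2 times (7.81% of all). These matches read TGAATCA and TGATTCA. None of the 10 motifs searched is in Rflnb. A match describes the letters only.

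Rflnb, the refilin gene, has a single annotated transcript at chr11:76019194-76027782. It was at 0.715, 1.36, 1.91, 2.70 and 1.15 TPM in labelled knockout libraries 1 to 5, against 0.277, 0.202, 0.143, 0.196 and 0.171 TPM in control libraries 1 to 5. The lowest labelled knockout library, number 1, lay above the highest control library, also number 1, and the means were 7.92-fold apart (1.57 ± 0.765 against 0.198 ± 0.050 TPM). The values rest on 47 to 183 estimated counts in labelled knockout libraries and 10 to 18 in control libraries, and the fitted log2 fold change, knockout over control, was 2.93 ± 0.35 (SE). Of 4 listed relatives and partners, 2 had enough counts to be tested and neither passed. Flna, the most widely expressed filamin, averaged 5.73 ± 3.06 TPM in labelled knockout and 3.66 ± 1.03 TPM in control libraries (log2 fold change 0.56 ± 0.24, edgeR adjusted p = 0.551).

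**Figure D1:**
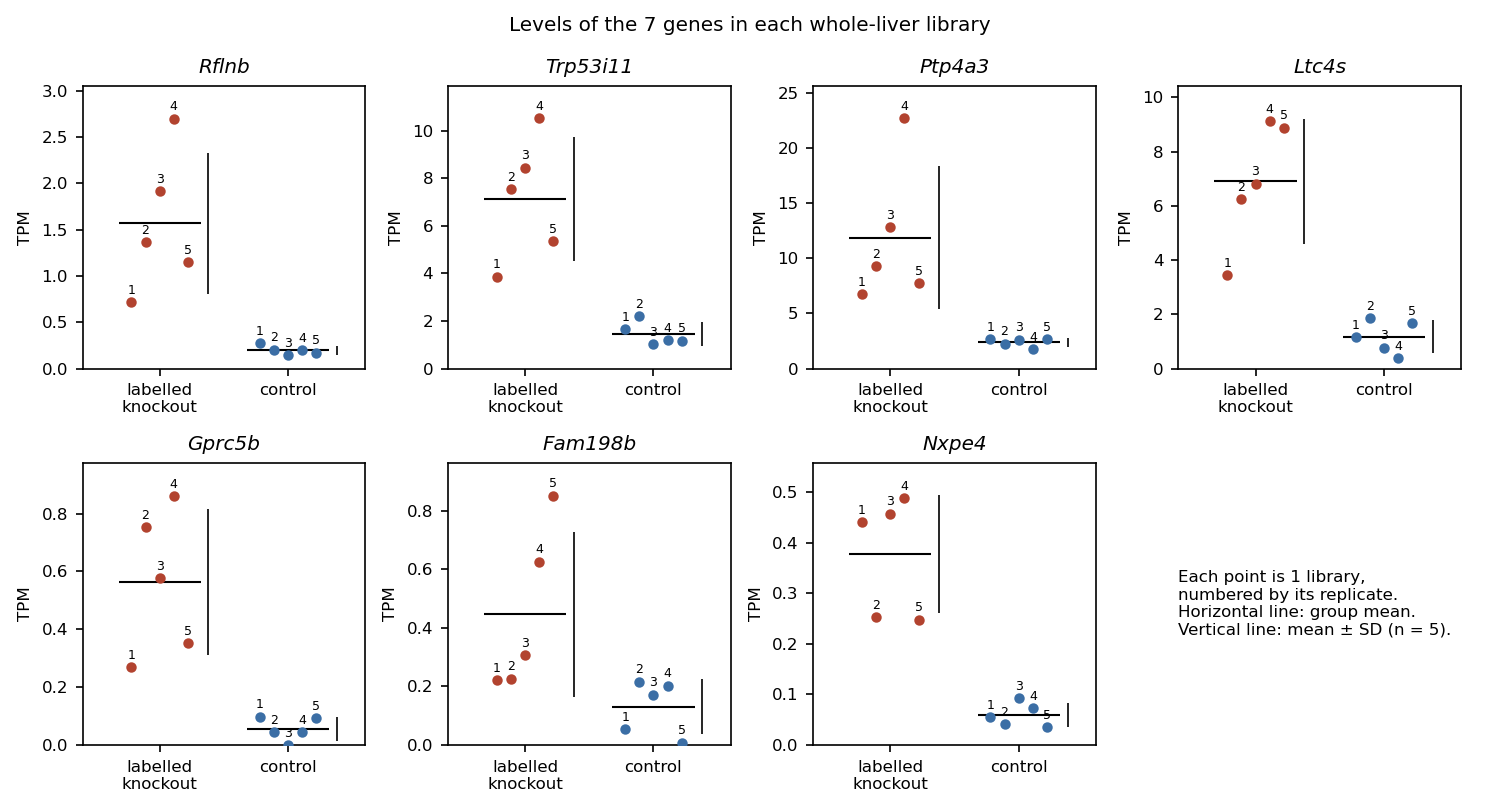
TPM of each of the 7 genes in each library, labelled knockout libraries left and control libraries right of each panel, numbered by replicate, with the group mean and SD (n = 5 each). The labelled knockout libraries of Rflnb lie between 0.715 and 2.70 TPM and its control libraries between 0.143 and 0.277 TPM, while for Fam198b the lowest labelled knockout library (0.221 TPM) all but meets the highest control library (0.217 TPM).

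The 7 genes do not overlap between the groups by choice, and the background for that is small: 122 of the 12872 tested genes (0.948%) were higher without overlap in normalised log2 CPM, and 168 (1.31%) in TPM. Genes that failed the rule were compared if they had at least as large a fold change and a labelled knockout mean of at least 1 TPM. The 2 nearest of these were Cdkn1a and E030018B13Rik. Gprc5b, Fam198b and Nxpe4 lie below that mean themselves, and genes as low as they are were not searched. Cdkn1a, the cell cycle inhibitor p21, was at 2.10, 33.1, 1.20, 1.40 and 21.6 TPM in labelled knockout libraries, against 1.18, 0.663, 0.507, 1.22 and 0.373 TPM in control libraries, so its difference came from libraries 2 and 5. On the normalised log2 scale its lowest labelled knockout library lay 0.38 below its highest control library, and that of E030018B13Rik 0.80 below. Just inside the rule, the smallest distance was 0.62 for Nxpe4 and the largest 1.47 for Fam198b.

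Trp53i11 (chr2:93187548-93201759, plus strand) was at 3.86, 7.53, 8.44, 10.5 and 5.35 TPM in labelled knockout libraries, against 1.66, 2.21, 1.03, 1.18 and 1.17 TPM in control libraries. Labelled knockout library 4 was again the highest and library 1 the lowest, and control library 2 came closest to it. The mean was 7.14 ± 2.61 TPM against 1.45 ± 0.488 TPM, a 4.92-fold difference, on 177 to 503 and 52 to 100 estimated counts (log2 fold change 2.15 ± 0.26). Of 16 other p53 target genes listed, 15 were tested, 0 passed in either direction, and 13 had positive fold changes, with a median log2 fold change of 0.41 against 0.00 over all genes. Ei24, a protein of the endoplasmic reticulum, averaged 94.6 ± 31.4 TPM in labelled knockout and 76.7 ± 13.1 TPM in control libraries (0.23 ± 0.16, edgeR adjusted p = 0.733). Perp, a desmosomal p53 target, averaged 48.1 ± 12.3 and 43.2 ± 3.74 TPM, and Gdf15, a stress cytokine, 20.5 ± 11.0 and 38.9 ± 21.2 TPM. Cdkn1a, the classical p53 target, had the largest fold change of the list (3.87 ± 1.14, edgeR adjusted p = 0.352, DESeq2 adjusted p = 0.00887), and its 2 high libraries were not those in which Trp53i11 was highest.

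Ptp4a3 (chr15:73723145-73758766, plus strand) was the most abundant of the 7 genes per transcript length. It was at 6.76, 9.32, 12.8, 22.7 and 7.76 TPM in labelled knockout libraries, against 2.69, 2.27, 2.62, 1.74 and 2.65 TPM in control libraries. Its control libraries lay close together, while labelled knockout library 4 stood well above the other 4 of its group. The mean was 11.9 ± 6.47 TPM against 2.39 ± 0.401 TPM, a 4.96-fold difference (log2 fold change 2.26 ± 0.34). The other PRL phosphatases were far more abundant and did not pass: Ptp4a1 averaged 53.5 ± 31.2 TPM in labelled knockout and 63.3 ± 28.7 TPM in control libraries, and Ptp4a2 38.3 ± 7.16 and 47.7 ± 14.5 TPM. Of these 2 and the 4 CNNM transporters that PRL phosphatases bind, 5 of 6 were tested, 0 passed and 3 had positive fold changes (median log2 fold change 0.02). Cnnm2 averaged 3.64 ± 0.357 TPM in labelled knockout and 3.39 ± 0.976 TPM in control libraries.

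Ltc4s (chr11:50236461-50238616, minus strand) was at 3.44, 6.26, 6.82, 9.12 and 8.88 TPM in labelled knockout libraries, against 1.16, 1.85, 0.771, 0.385 and 1.67 TPM in control libraries. The highest control library, number 2, stayed well below the lowest labelled knockout library, number 1. The mean was 6.90 ± 2.31 TPM against 1.17 ± 0.608 TPM, a 5.92-fold difference, on 33 to 93 and 3 to 16 estimated counts (log2 fold change 2.62 ± 0.42). Its transcripts are short and share 268 exon bases with the antisense gene Gm26542, which held 6 estimated counts in all in the labelled knockout group and 5 in the control group. Of 14 other genes of leukotriene synthesis, export, breakdown and reception, 7 were tested, 0 passed and 5 had positive fold changes (median log2 fold change 0.29). Alox5, the enzyme that makes leukotriene A4 from arachidonate, had only 8 and 3 estimated counts in the 2 groups and was not tested. Lta4h, which turns leukotriene A4 into leukotriene B4, averaged 14.7 ± 2.58 TPM in labelled knockout and 13.5 ± 1.71 TPM in control libraries, and Mgst3 13.5 ± 4.54 and 14.2 ± 2.94 TPM. Mgst1, an abundant microsomal glutathione transferase of hepatocytes, averaged 4723 ± 1119.8 and 5128 ± 623 TPM. Of 8 mast cell markers, 2 were tested and neither passed. The 8 summed to 1.83 to 4.54 TPM in labelled knockout and 1.62 to 5.49 TPM in control libraries. Among them Cpa3, Tpsb2 and Ms4a2 were at 0 in all 10 libraries.

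Gprc5b (chr7:118972047-118995211, minus strand) had the largest fold change of the 7 on low counts. It was at 0.270, 0.753, 0.576, 0.861 and 0.352 TPM in labelled knockout libraries, against 0.0982, 0.0443, 0, 0.0437 and 0.0919 TPM in control libraries. These are 23 to 76 estimated counts in labelled knockout libraries, against 4, 2, 0, 2 and 8 in control libraries, so the control level is poorly fixed (log2 fold change 3.56 ± 0.57). The mean was 0.563 ± 0.253 TPM against 0.0556 ± 0.0403 TPM, values that also depend on the implied transcript length given below. Exons of Gprc5b share 606 bases with Iqck on the opposite strand, which held 10 and 7 estimated counts in the 2 groups. Of its 3 relatives only Gprc5c was tested. It was at 25.2 ± 9.05 TPM in labelled knockout and 23.5 ± 6.43 TPM in control libraries, a log2 fold change of 0.01 ± 0.18 (edgeR adjusted p = 0.990).

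Fam198b (chr3:79884533-79946280, plus strand) gave different pictures in counts and in TPM. It had 28, 26, 36, 82 and 27 estimated counts in labelled knockout libraries, against 7, 3, 5, 2 and 1 in control libraries, 199 against 18 in all (log2 fold change 3.34 ± 0.51). In TPM it was at 0.221, 0.226, 0.306, 0.626 and 0.851 in labelled knockout libraries, against 0.0532, 0.217, 0.172, 0.203 and 0.00774 in control libraries, and the means were 3.42-fold apart. TPM divides by the length of the transcripts to which the estimate assigns the reads, and those of Fam198b are annotated from 436 to 6729 bases. The ratio of count to TPM implied a mean transcript length of 1609 bases in labelled knockout library 5 and of 6614 to 6623 bases in the other 4. Among control libraries it implied 936, 1521 and 704 bases in libraries 2, 3 and 4, and 6627 and 6618 bases in libraries 1 and 5. With 1 to 7 counts in a control library, the placing of a few reads sets its TPM. Of the 5 related genes listed, 4 were tested and 0 passed. Fam20c, a Golgi kinase of secreted proteins, averaged 15.6 ± 3.73 TPM in labelled knockout and 17.3 ± 4.37 TPM in control libraries, Fam20a 14.5 ± 5.97 and 12.6 ± 1.67 TPM, and Fam20b 3.30 ± 0.864 and 3.46 ± 0.883 TPM.

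**Figure D2:**
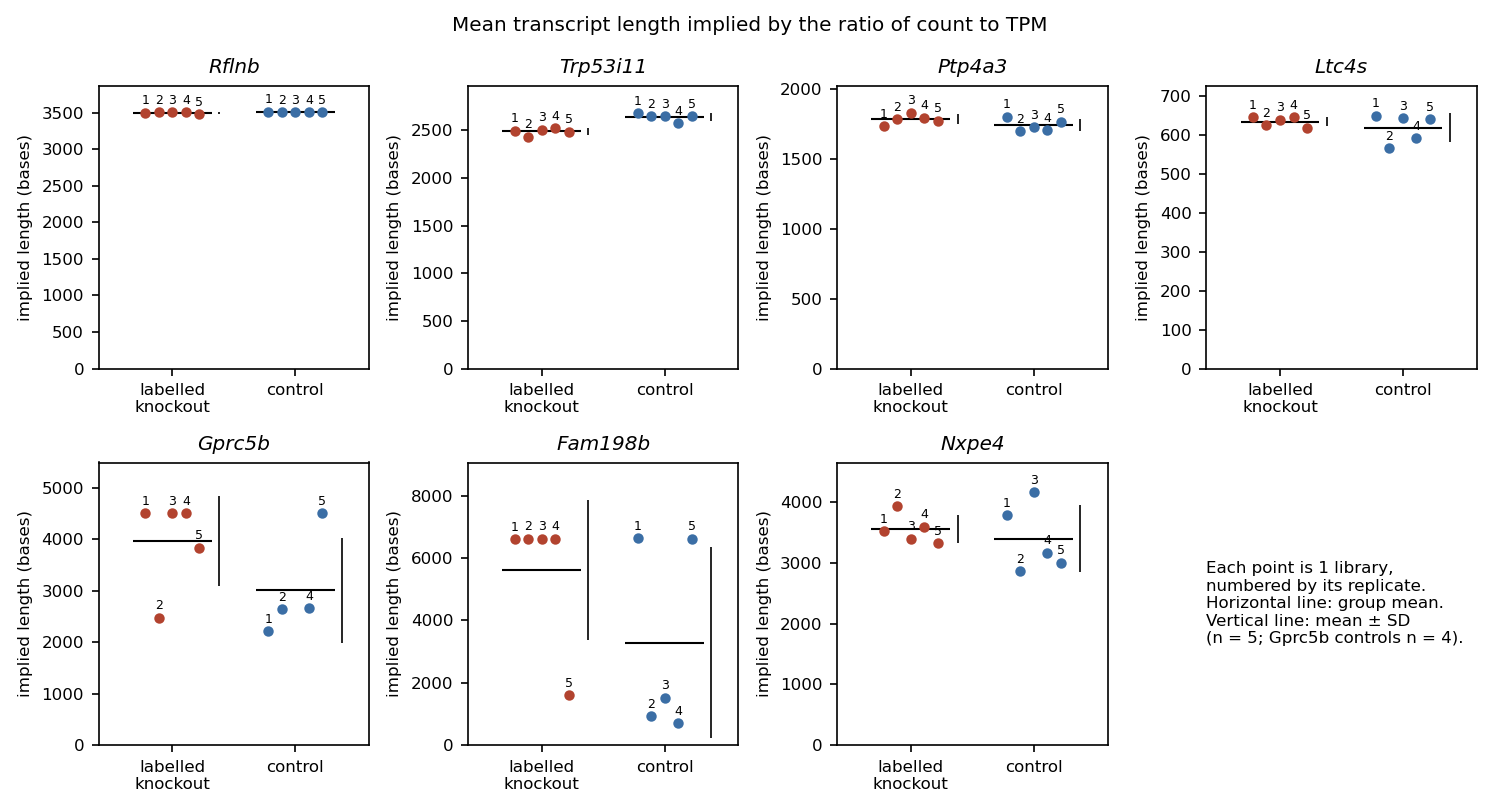
Mean transcript length in bases implied by the ratio of count to TPM for each of the 7 genes, labelled knockout libraries left and control libraries right, numbered by replicate, with group mean and SD. Rflnb, with 1 annotated transcript, stays between 3480 and 3512 bases, while Fam198b lies between 704 and 1609 bases in 4 of the 10 libraries.

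The other genes except Gprc5b kept a steadier implied length. Trp53i11 lay at 2434 to 2523 bases in labelled knockout libraries, against 2572 to 2682 bases in control libraries, so its implied length was slightly lower in the former. Levels of single transcripts were not examined, and how many of all genes show such a gap was not computed. Gprc5b varied widely, at 2478 to 4513 bases in labelled knockout libraries, against 2220 to 4509 bases in the 4 control libraries with counts. Its TPM thus also depends on the placing of reads. Labelled knockout library 2 had a higher TPM than library 3 (0.753 against 0.576) on fewer estimated counts (31 against 46). Ltc4s, Ptp4a3 and Nxpe4 overlapped between the groups.

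Nxpe4 (chr9:48162023-48400025, plus strand) was at 0.440, 0.253, 0.457, 0.487 and 0.248 TPM in labelled knockout libraries, against 0.0556, 0.0406, 0.0931, 0.0726 and 0.0351 TPM in control libraries. Labelled knockout libraries 2 and 5 were low and the other 3 close together. The values rest on 17 to 34 estimated counts in labelled knockout libraries and 2 to 8 in control libraries (log2 fold change 2.51 ± 0.44). Its relative Nxpe2 lies within the span of Nxpe4 on the opposite strand (chr9:48318006-48353454) and shares 0 exon bases with it. Only the Nxpe4 transcripts that start at 48162023 and 48162115 span Nxpe2. The promoter printed above is that of the transcript starting at 48362041, beyond Nxpe2. Nxpe2 moved the other way. It was at 2.42, 3.01, 1.57, 1.66 and 2.01 TPM in labelled knockout libraries, against 4.64, 5.83, 4.71, 3.19 and 5.59 TPM in control libraries. Nxpe2 fell by 1.48 ± 0.23 on the log2 scale (edgeR adjusted p = 0.0110), and it was the only 1 of the 35 tested genes in the family and pathway lists to pass, against 0.171% of all tested genes called lower. The call was lost under 6 of 22 alternatives, with adjusted p of 0.345 with the run of file numbers as a covariate, 0.0710 and 0.0621 in limma with TPM pseudocounts of 1 and 0.1, 0.0801 and 0.870 with the pan-endothelial and continuous endothelial scores as covariates, and 0.105 without the 2 control libraries high in Fos. Within runs of consecutive file numbers its log2 difference, labelled knockout minus control, was −1.41 in the first run and −1.62 in the second.

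**Figure D3:**
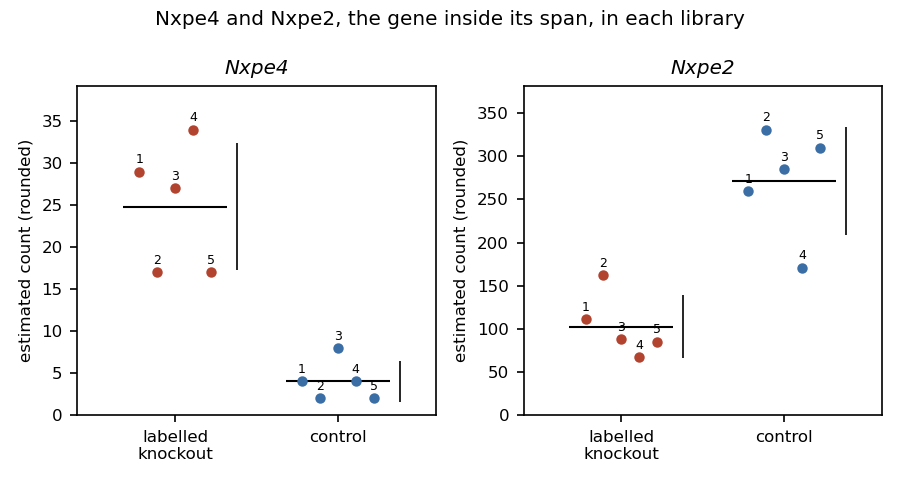
Estimated counts of Nxpe4 (left panel) and Nxpe2 (right panel), labelled knockout libraries left and control libraries right, numbered by replicate, with group mean and SD (n = 5 each). Nxpe4 lies at 17 to 34 counts in labelled knockout libraries, above the 2 to 8 in control libraries, and Nxpe2 shows the opposite order.

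**Figure D4:**
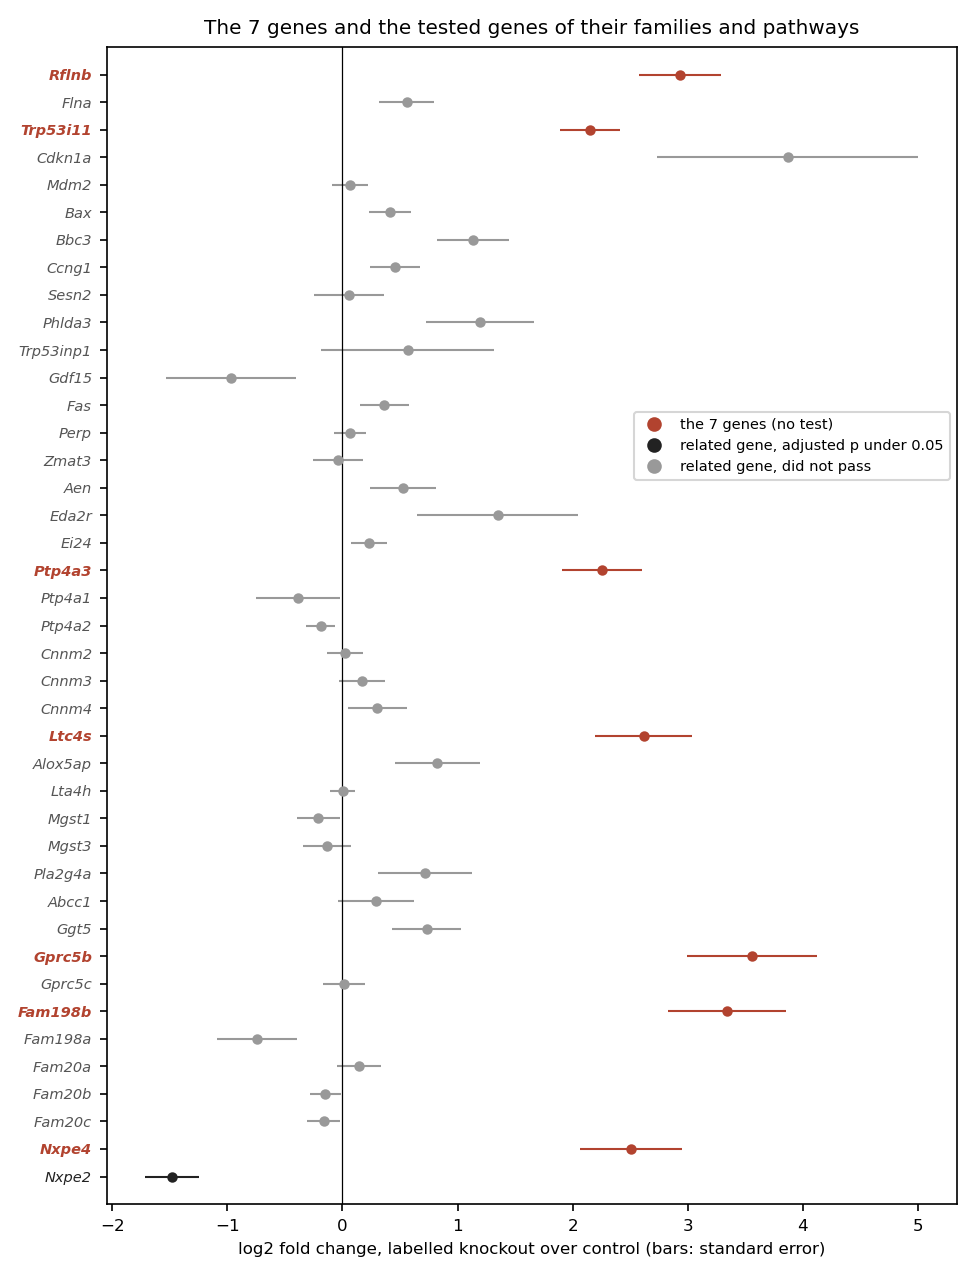
Log2 fold change, labelled knockout over control, with standard errors, for the 7 genes (red, no test) and all but 1 of the 35 tested genes of their families and pathways (grey, or black where the adjusted p passed). Nxpe2, at −1.48, is the single black point, Cdkn1a lies at 3.87, and the other related genes lie between −0.97 and 1.35.

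Genes next to the 7 were compared to see whether whole regions moved. Genes that overlap a member, such as Nxpe2, were left out of this comparison. Of the 14 nearest tested genes without overlap, 1 on each side, 0 passed the test, against 0.357% of all tested genes. Positive fold changes were seen for 9 of the 14, against 50.4% of all tested genes. The largest positive one was that of Tspan18, which starts 1 base after the end of Trp53i11 on the opposite strand (log2 fold change 0.70 ± 0.38, edgeR adjusted p = 0.658), and it turned to −0.02 and −0.64 with the pan-endothelial and continuous endothelial scores as covariates. The lowest was that of Pdgfc, 1090136 bases beyond Fam198b (−1.26 ± 0.31, edgeR adjusted p = 0.167, DESeq2 adjusted p = 0.0138).

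The 7 genes ranked the labelled knockout libraries in a similar order. Library 4 was the highest of its group for 6 of the 7 genes in normalised log2 CPM, with library 5 highest for Ltc4s, and library 1 was the lowest for 5. Control libraries had no such leader, and no control library was highest for more than 2 genes. With each group centred on its own mean, the correlation across the 10 libraries was positive in 18 of 21 pairs of genes, with a median r of 0.49. Rflnb and Trp53i11 (r = 0.85) and Rflnb and Ptp4a3 (r = 0.81) were the most alike, and Gprc5b and Nxpe4 the least (r = −0.34). Without labelled knockout library 4 the median was 0.42, and 16 pairs stayed positive. These coefficients describe libraries that share depth and tissue makeup. Neither the order of libraries nor the correlations were computed over all genes as a background. Labelled knockout library 4 was also the highest of its group for the summed pan-endothelial, Kupffer, recruited leukocyte and stellate markers. It was not the highest for the venous or hepatocyte markers.

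Lists of endothelial markers differed between the groups to unlike degrees. The summed level of 14 pan-endothelial genes was 51.6 to 115 TPM in labelled knockout libraries, against 36.5 to 65.4 TPM in control libraries, with 13 of 14 fold changes positive and 0 passing. Among the most abundant, Egfl7 averaged 19.2 ± 5.03 TPM in labelled knockout and 11.7 ± 2.03 TPM in control libraries, Eng 14.7 ± 4.47 and 12.9 ± 2.70 TPM, and Esam 5.55 ± 2.14 and 3.11 ± 0.638 TPM. Of 12 genes of continuous (non-sinusoidal) endothelium, 5 rose, against 0.186% of all tested genes called higher, and their sum was 113 to 210 TPM in labelled knockout libraries, against 51.6 to 84.1 TPM in control libraries. Of 11 tested tip cell markers 2 rose, and 11 of 11 fold changes were positive. Sinusoidal markers overlapped between the groups (82.0 to 152 TPM in labelled knockout and 64.9 to 128 TPM in control libraries; 9 of 13 fold changes positive, median log2 fold change 0.17, 0 passing). Of the arterial markers 4 of 5 had positive fold changes, of the venous 3 of 6 and of the lymphatic 0 of 2, with medians of 0.71, −0.11 and −0.41 and 0 passing. Kupffer cell markers summed to 211 to 411 and 131 to 208 TPM with 11 of 11 fold changes positive, recruited leukocyte markers to 35.1 to 101 and 21.2 to 35.4 TPM, and stellate cell markers to 49.7 to 169 and 64.4 to 95.3 TPM, with labelled knockout library 4 the highest of all 3. In whole tissue, more cells of a type and more RNA per cell cannot be told apart.

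Within the groups, all 7 genes had positive slopes on the pan-endothelial score, but no slope passed the test over all genes. The score is the mean centred log2 level of the 14 genes, and each slope was fitted with the group as a term. The slope was 1.36 ± 0.45 for Fam198b (SE; 95% interval 0.39 to 2.33; edgeR adjusted p = 0.202), 0.89 ± 0.32 for Ptp4a3 (0.18 to 1.60; edgeR adjusted p = 0.237) and 0.66 ± 0.25 for Trp53i11 (0.11 to 1.21; edgeR adjusted p = 0.252). These 3 had an unadjusted p under 0.05, as had 1917 of all 12872 tested genes. The slopes of Gprc5b (0.89 ± 0.59), Rflnb (0.74 ± 0.36), Ltc4s (0.50 ± 0.51) and Nxpe4 (0.49 ± 0.53) had intervals that reached below 0. Of all tested genes 53% had a positive slope, with a median of 0.03, 0.0699% were called positive and 0.0777% were called in either direction. The DESeq2 and limma fits also called 0 of the 7 genes. Without labelled knockout library 4 the slope of Rflnb was 0.20, and without the 3 libraries high in Saa1, an acute-phase gene, those of Ptp4a3, Ltc4s and Gprc5b turned to −0.20, −0.31 and −0.19. The slope did not pass a test of difference between the groups for any of the 7 genes (lowest edgeR adjusted p = 0.801, 0 of 7 with an unadjusted p under 0.05). Of all 12872 tested genes, 1043 had an unadjusted p under 0.05 in that test.

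**Figure D5:**
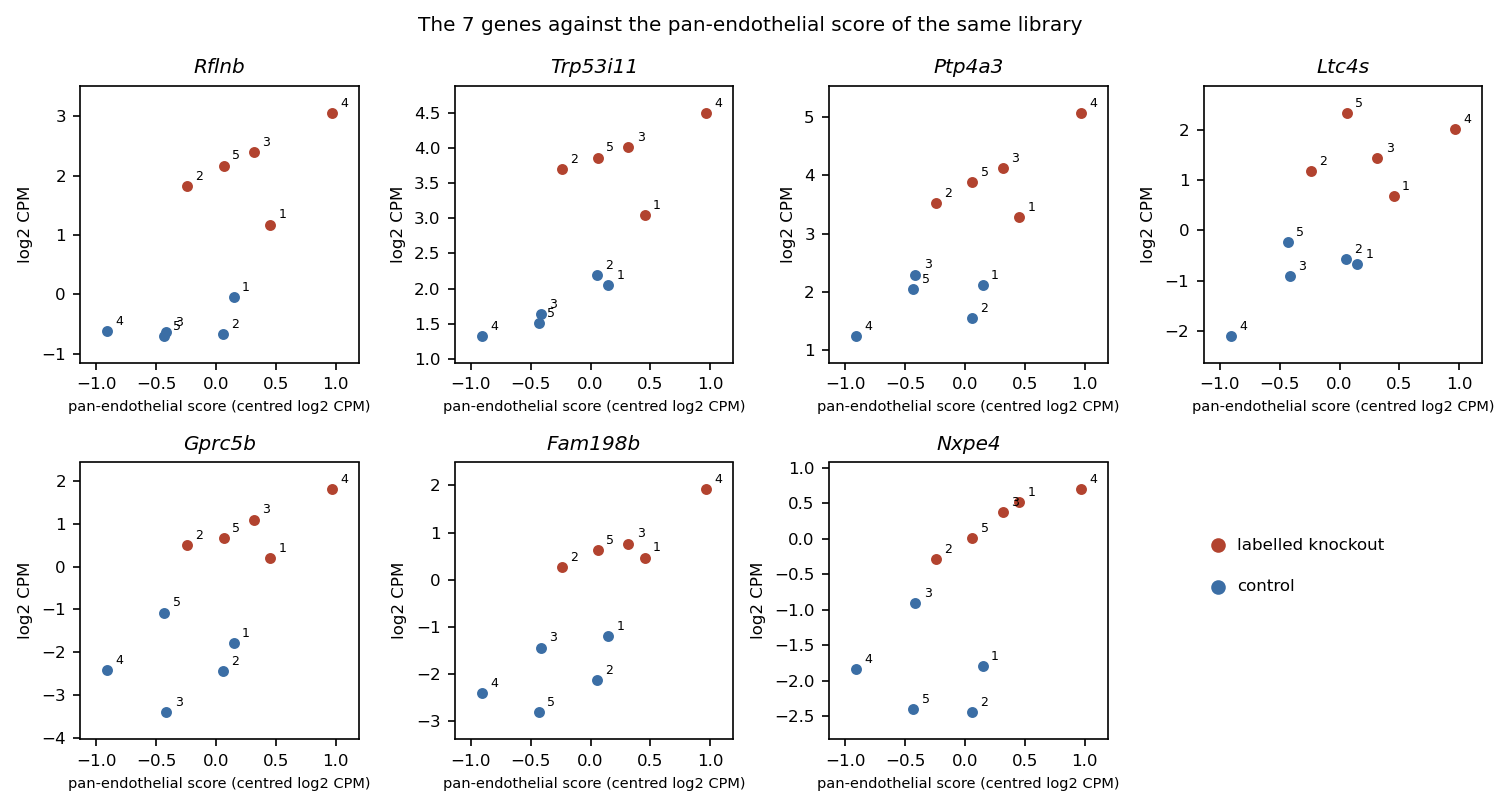
Normalised log2 CPM of each of the 7 genes against the pan-endothelial score of the same library, labelled knockout in red and control in blue, numbered by replicate. Labelled knockout library 4 has the highest score (0.97) and control library 4 the lowest (−0.91). By the choice of the 7 genes, every red point lies above every blue one.

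Scores of 6 other cell types gave 0 of 42 slopes that passed, and few genes of any kind passed. Of all 12872 tested genes, 0 were called on the continuous endothelial, Kupffer and recruited leukocyte scores. On the sinusoidal score 18 were called positive and 3 negative, on the stellate 19 and 0, and on the hepatocyte score 6 and 1. On the continuous endothelial score the slopes were 1.15 ± 0.45 for Ltc4s and 1.09 ± 0.28 for Ptp4a3, with edgeR adjusted p of 0.493 and 0.252. On that score 5 of the 7 genes had an unadjusted p under 0.05, against 1018 of all 12872 tested genes. On the stellate score it was 4 of the 7 against 844 of all. The sinusoidal score had 2 against 1968 and the Kupffer score 2 against 1008. The recruited leukocyte score had 1 against 1599 and the hepatocyte score 0 against 1406. Ptp4a3 had a slope of 0.91 ± 0.21 on the stellate score (edgeR adjusted p = 0.199). Ltc4s had a slope of 1.25 ± 0.46 on the Kupffer score (edgeR adjusted p = 0.552). On the hepatocyte score 6 of 7 slopes were negative, with intervals that all held 0. Of all tested genes 47.3% had a positive slope on that score, with a median of −0.05.

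As a description, the fitted log2 fold changes of the 7 genes had a median of 2.62, against 2.33 (range 1.62 to 2.96) with the pan-endothelial score as a covariate. With the continuous endothelial score as a covariate it was 1.63 (0.75 to 2.13). The continuous score did not overlap between the groups (0.09 to 1.43 in labelled knockout and −1.03 to −0.35 in control libraries), so its part and that of the label cannot be told apart. With the run of file numbers as a covariate the median was 2.55 (1.87 to 3.30). Within the first run, labelled knockout library 1 exceeded the mean of its 2 control libraries by 0.92 (Trp53i11) to 2.63 (Nxpe4) on the log2 scale, and within the second, library 3 exceeded the mean of 3 control libraries by 2.09 (Nxpe4) to 3.40 (Gprc5b). Labelled knockout libraries 2, 4 and 5 belong to a run without a control library.

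For each of the 7, the genes with the most similar pattern across the 10 libraries were ranked by r after centring each group, over 9922 candidates. The top of so many candidates has a high r by choice. What r unrelated genes would reach was not computed, so the names are a description. Jcad, a component of endothelial cell junctions, and Thy1, on 4 to 30 estimated counts per library, were most like Rflnb (both r = 0.94). Sptan1, a spectrin of the membrane skeleton, was most like Trp53i11 (r = 0.98), before Arhgap23 (0.94). Sp100, a nuclear body protein (r = 0.96), and Rsbn1l (0.93) came first for Ptp4a3, and Tmem132a (0.90) and Fam124a (0.87) for Ltc4s. Mfsd10 (r = 0.93) and Il10rb, a cytokine receptor chain (0.85), were most like Gprc5b. Tmem87a (r = 0.96) and Ogt, which adds N-acetylglucosamine to proteins (0.94), came first for Fam198b, and Golga7 (0.90) and Gng5 (0.88) for Nxpe4. With library totals alone as the scaling, r of Nxpe4 and Golga7 was 0.49.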

How the data were processed

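Per the submitters' processing notes, reads were trimmed with Trim Galore 0.6.4 and quantified with kallisto on GRCm38.p6; strand settings are not given in the sources used here. The authors deposited, for each of the 10 libraries, estimated counts per gene and TPM (relative to transcript length and to the library's total). Estimated counts were rounded to whole numbers. Of 55385 IDs, 55144 matched the GENCODE annotation of the same build, and the others held at most 0.013% of a library's counts. Genes were filtered by edgeR's filterByExpr, scaled by TMM (factors 0.869 to 1.11) and tested with edgeR 4.0.16 quasi-likelihood fits in R 4.3.3, with Benjamini-Hochberg adjustment over 12872 genes and a threshold of 0.05. Slopes on cell-type scores had the group as a term. Alternatives used DESeq2 1.42.0, limma 3.58.1 on log2(TPM + 1 or 0.1), other scalings, the run of file numbers and each library left out. Scripts were tested on simulated data. The 7 genes, the gene lists and the tests were chosen with earlier results of these data known. Named beyond the 7 are Acvrl1, per related list the genes called and the 3 most abundant by mean TPM, the 3 most abundant pan-endothelial genes, the 2 most alike genes per member, and those nearest the rule's limit; Tspan18 and Pdgfc, Alox5 and the mast cell markers at 0 were picked out after their values were seen. 1 related gene that this rule names is not reported here. P-values measure the spread between libraries.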

Additional observations from a re-analysis of the deposited data

Results flagged for a closer look

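Of 44 sets of 5 values checked for a library standing apart from its group, 3 met the criterion of 0.71 for the gap over the range, and chance gives about 1 in 20. Rflnb in control library 1 was at −0.0442 log2 CPM, and the nearest other control library was at −0.62. The Kupffer score of control library 5 was −0.00129, with the next control library at −0.469. The stellate score of labelled knockout library 4, the library highest for 6 of the 7 genes, was 1.25, with the next of its group at −0.179. The part of these libraries in the results was not tested beyond leaving each out.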

How the results depend on the processing

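Low counts in control libraries limit the precision of the fold changes of Gprc5b, Fam198b and Nxpe4. The number of genes called higher (24) was 82 with DESeq2, 68 with no count filter, 2 with the run of file numbers as a covariate, and, chosen after seeing the data, 6 and 1 with the pan-endothelial and continuous endothelial scores as covariates, 7 without the 2 control libraries high in Fos and 11 without the 3 libraries high in Saa1; leaving out each library gave 18 to 40. The number called lower (22) was 70 with DESeq2, 51 with no count filter, 3 with the run, and 14 and 1 with the pan-endothelial and continuous endothelial scores as covariates. It was 10 in 1 of the 2 fits without the libraries high in Fos or in Saa1. It was 13 in limma on log2(TPM + 1) and 15 to 43 with a library left out. Related genes called (1) were 3 with DESeq2, 0 under each alternative that lost Nxpe2, and 1 to 2 with a library left out. Genes called on the pan-endothelial slope (10) were 338 with DESeq2, 122 with no filter, 35 with library totals alone, 21 with the sinusoidal score, 5 with the run, 3 with the score from TPM, 1 without high Fos, 0 with the continuous score, in both limma fits and without high Saa1, and 0 to 25 with a library left out. Those called on the difference of slope (0) were 116 with DESeq2, 74 with no filter, 2 without high Fos, 8 without high Saa1 and 0 to 1 with a library left out, and member slopes on other scores (0 of 42) were 1 with DESeq2 and 1 with no filter. The cause of these changes was not tested. The 7 genes had 0 slopes called on the pan-endothelial score under every alternative run.

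Same-numbered libraries deviated together with r of 0.28, 0.08, −0.10, −0.04 and 0.11, and 2 of 5 numbers matched best with their own, so the numbers were not taken as pairs. With the replicate block 16 genes were called higher, 24 lower and 1 on the slope.

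Some log2 fold changes changed sign; their causes were not tested. Without high Fos, Cnnm2 was −0.10, Lta4h −0.011 and Gprc5c −0.17. With the run as a covariate, Cnnm2 was −0.0055, Mgst3 0.031, Fam20a −0.16 and Perp −0.095. With no count filter, Lta4h was −0.0084 and Gprc5c −0.0029. With the continuous endothelial score, Flna was −0.55 (0.56 without that covariate), Acvrl1 −0.0037 (0.99), Tspan18 −0.64 (0.70), Egfl7 −0.42 (0.64), Eng −0.69 (0.099) and Esam −0.18 (0.75), and with the pan-endothelial score Tspan18 was −0.020 and Eng −0.38. Without high Saa1, Eng was −0.075, and the slopes of Ptp4a3, Ltc4s and Gprc5b were −0.20, −0.31 and −0.19. With a library left out, Cnnm2 ranged from −0.060 to 0.095, Lta4h from −0.035 to 0.069, Gprc5c from −0.10 to 0.12, Fam20a from −0.018 to 0.28, Perp from −0.0084 to 0.12 and Eng from −0.073 to 0.21.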
